A study of Mus musculus with 16 samples.

Results

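Ezh2, Ezh1, Eed, Suz12, Dnmt1, Dnmt3a, Dnmt3b, Tet2 and Tet3 are 9 of the 52542 gene rows counted in single mouse LSK cells. They were taken by symbol as core Polycomb repressive complex 2 (PRC2) genes and enzymes that write or oxidise DNA methylation. Tet1, another oxidising enzyme, was not among them and was followed with related genes. LSK cells, which lack lineage markers and carry Sca1 and Kit, are the part of the bone marrow with blood stem cells and early multipotent progenitors. The hosts were lethally irradiated CD45.1/CD45.2 mice (C57BL/6J) that received CD45.2 fetal liver cells lacking both Regnase-1 and Regnase-3 (Regnase-1-/-, Regnase-3-/-) with an equal part of CD45.1 control fetal liver cells, and LSK cells were sorted 4 weeks later. Regnase-1 and Regnase-3 are RNA-binding endonucleases that destabilise messenger RNAs. Neither the age and number of the mice nor how the deletions were made is stated in the labels. All cells therefore share irradiated hosts and a fetal liver origin, and the labels put all 16 libraries in 1 group, LSK, with no genotype for a library or a well. No comparison of genotypes was made, and whether gates of cells differ in their mix of genotypes cannot be told. Nothing says that libraries came from separate mice, so p-values measure only how differences between gates vary over libraries. Values over libraries are given as ranges and medians, and what was compared are gates of cells inside each library.

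PRC2 places methyl groups on histone H3 lysine 27, a mark of silenced genes: Ezh2 and Ezh1 are its alternative catalytic subunits, Eed binds the mark and Suz12 holds the complex together. Dnmt1 copies DNA methylation to the new strand behind the replication fork, Dnmt3a and Dnmt3b methylate unmethylated sites, and Tet2 and Tet3 oxidise methylcytosine. In blood-forming tissue, loss-of-function changes of EZH2, DNMT3A and TET2 are recurrent in human myeloid disease, and Ezh1 is known as the form of the less dividing cell.

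The 5157 kept cells carried 10437310 unique molecular identifiers (UMIs, one per captured transcript), with 500092 to 810096 in a library (median 634168), from 295 to 345 cells. The median cell of a library held 1146 to 1993 UMIs, and 9.43% to 12.1% of a library's UMIs were mitochondrial. The genes of the sort were present. In CPM, a gene's UMIs scaled to a common total, Kit had a library median of 179 (128 to 210), Ly6a, which encodes Sca1, 228 (133 to 283), Cd34 602 (406 to 679) and Ptprc 101 (74.4 to 138). Of other cell types, 6 B cell genes summed to a median of 5.75 CPM (0 to 29.99) and 8 T and NK cell genes to 3.16 CPM (0 to 9.73), with Cd79a, Cd3e and Cd3d at 0. Neutrophil and macrophage genes (10) summed to 219 CPM (132 to 273), with Ltf and Ly6g at 0, and red cell and platelet genes (8) to 183 CPM (115 to 388), with Alas2 at 0. The 60 wells listed as empty held 801 UMIs and none of any of the 9 genes. No well name was shared between libraries.

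All 9 genes were detected, at levels that differed widely between the genes. Each UMI stands for a captured 3′ end, so CPM was not divided by transcript length, and levels between genes still hold differences in capture. Ezh2 had the highest median over libraries, 162 CPM (121 to 197), and Dnmt1 followed with 155 CPM (130 to 221). Suz12 had 109 CPM (66.7 to 134) and Eed 83.6 CPM (58.8 to 126). The de novo enzymes had 63.7 CPM for Dnmt3a (34.7 to 85.2) and 56.5 CPM for Dnmt3b (35.99 to 79.7). Tet3 had 23.8 CPM (7.999 to 31.9), Ezh1 14.3 CPM (3.47 to 41.7) and Tet2 4.66 CPM (0 to 11.1). Neighbours in this order overlapped over libraries in every case but 1: each library's Dnmt3b lay above the highest library's Tet3. Outside the set, Tet1 had 25.2 CPM (11.1 to 49.6).

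**Figure D1:**
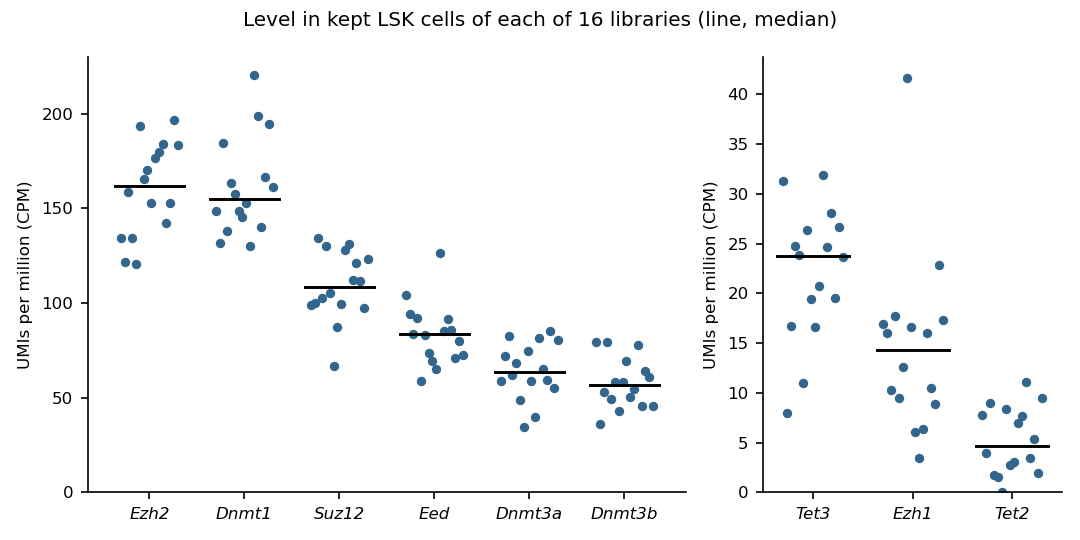
Level of each gene in CPM (vertical axis, linear, separate scale in the right panel) in each of the 16 LSK libraries (points) with the median (line). Ezh2 and Dnmt1 have the highest medians, 162 and 155 CPM, and Tet2 the lowest, 4.66 CPM.

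Library levels had a chi-square per degree of freedom of 1.27 for Tet3, 1.39 for Tet2 and 1.99 to 3.72 for the other genes. Counting error alone gives about 1. The excess was not tested, and values as near to 1 as those of Tet3 and Tet2 need not exceed counting error. The extremes were spread over several libraries. Ezh2 was lowest in LSK library 5 and highest in library 15, and Dnmt1 lowest in library 10 and highest in library 11. Dnmt3a was lowest in library 7 and highest in library 14. Some extremes were shared: Eed was also lowest in library 5, Suz12 in library 7 and Ezh1 in library 10. Dnmt3b and Tet3 were both lowest in library 2, and Tet3 was also highest in library 11. Ezh1's highest level, 41.7 CPM in library 7, included 1 cell with 11 of that library's 30 Ezh1 UMIs, and was 26.8 CPM without it. Tet2 had no UMI in library 6. Between sequencing batches, the median was 182 CPM in the 6 libraries of SB343 and 159 CPM in the 9 of SB341 for Ezh2, and 181 and 149 CPM for Dnmt1, with overlapping ranges for both genes. Library 1 has no batch entry.

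In single cells the genes were sparse. A UMI of Dnmt1 was found in 22.03% of cells (95% Wilson interval 20.9 to 23.2%), of Ezh2 in 21.3% (20.3 to 22.5%), of Suz12 in 16.2%, of Eed in 13.2%, of Dnmt3a in 9.95%, of Dnmt3b in 9.08%, of Tet3 in 4.09%, of Ezh1 in 2.27% and of Tet2 in 1.01%. These intervals cover counting error only, and at a median of 1562 UMIs per cell a cell without a UMI cannot be read as a cell without the transcript. Cells with 2 or more UMIs held 56.0% of the Ezh2 UMIs and 54.8% of the Dnmt1 UMIs, against 18.4% of the Tet3 UMIs. The highest single cell had 12 UMIs of Suz12 among 13717 UMIs in library 3, and a cell of the same library with the same total held 9 UMIs of Dnmt1.

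The genes lie apart in the genome, each on its own chromosome except 2 pairs: Ezh2 (chr6:47530139-47595341, minus strand) and Tet3 (chr6:83362373-83459084, minus strand), and Ezh1 (chr11:101191115-101226463, minus strand) and Suz12 (chr11:79993106-80034123, plus strand). Eed lies at chr7:89954654-89980983, Dnmt1 at chr9:20907209-20959888, Tet2 at chr3:133463679-133545139 (all minus strand), Dnmt3a at chr12:3806007-3914443 and Dnmt3b at chr2:153649450-153687730 (both plus strand; GRCm38, GENCODE M21). Of the 9 genes, 7 overlap an annotated antisense gene, among them Dnmt3aos and Dnmt3bos. None of these touches an annotated 3′ UTR, where the counted tags are made, with the exception that Tet3's UTR is annotated only over its stop codon and could not be checked. The counting's use of strand is not given, so antisense reads elsewhere in these genes cannot be told apart.

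RefSeq promoter windows (GRCm38.p6, 250 bases before to 50 after a start) were matched for all 9 genes. They were searched on both strands for TTTGGCGC and TTTCCCGC, forms of the site bound by E2F factors, which drive S phase genes, and for CCAAT. The motifs were chosen with the results below known. Of all 32851 mouse windows, 0.514% hold TTTGGCGC, 1.07% TTTCCCGC and 37.4% CCAAT. TTTGGCGC was found just after the Ezh2 start and after 1 of the 3 Dnmt1 starts, TTTCCCGC before the Suz12 start, and neither in the windows of the other 6 genes. CCAAT was found for 5 genes, Ezh2, Eed, Suz12, Dnmt1 and Tet3. The sites of the catalytic subunit and of the maintenance methylase are shown with 30 bases each, read on the gene's strand, with the motif in capitals, since these are the genes with the largest differences between cycle gates. The bases before the Suz12 start are shown whole, with TTTCCCGC and CCAAT in capitals.
Ezh2, chr6:47595009-47595038, minus strand: gggttgctgcgTTTGGCGCtcggtccggtc
Dnmt1, chr9:20952574-20952603, minus strand: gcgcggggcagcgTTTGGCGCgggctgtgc
Suz12, chr11:79992856-79993105, plus strand: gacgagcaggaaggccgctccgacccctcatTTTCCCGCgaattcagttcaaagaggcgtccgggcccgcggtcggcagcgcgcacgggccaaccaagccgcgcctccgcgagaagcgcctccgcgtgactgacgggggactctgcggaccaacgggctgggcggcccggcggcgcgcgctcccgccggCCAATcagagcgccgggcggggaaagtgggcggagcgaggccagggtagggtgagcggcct
A match is a run of letters and was not tested as a binding site, and its absence from a window says nothing of the factor.

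To set the genes against the cell cycle, cells were gated inside each library by their share of UMIs in 44 replication genes (Pcna, the Mcm genes and others) and 49 mitotic genes (Mki67, Top2a, Cdk1 and others), none of them among the 9. Replication-high cells lay above the library's upper quartile of the first share and not of the second, mitotic-high cells the reverse, and cycle-low cells at or below the median of both. This gave 1099 replication-high, 1099 mitotic-high and 1451 cycle-low cells. The gates are ranges and not cell types: 9.97% of cells lay within 1 UMI of the replication upper quartile and 4.98% within 1 UMI of the mitotic one. For the medians that bound the cycle-low gate these shares were 18.4% and 18.1%. They differed in depth, with a median of 1870, 2283 and 1178 UMIs per cell in replication-high, mitotic-high and cycle-low cells, and in mitochondrial share, with library medians of 9.31%, 10.2% and 11.6%. Summed neutrophil and macrophage genes stood at 212, 180 and 258 CPM in these gates, and red cell and platelet genes at 177, 139 and 260 CPM. Their part in the results was not tested, while mitochondrial UMIs were removed in 1 alternative and depth was set equal in another. To set it equal, cells were thinned to 1000 UMIs each, 1317 shallower cells were left out, and the gates were drawn anew from the thinned UMIs, so its gates hold partly other cells. UMIs were summed per library and gate, and gates were compared by edgeR's quasi-likelihood test with the library as a block (16 pairs) and Benjamini-Hochberg adjustment over all genes tested. Both comparisons with cycle-low cells share the same cycle-low sums.

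**Figure D2:**
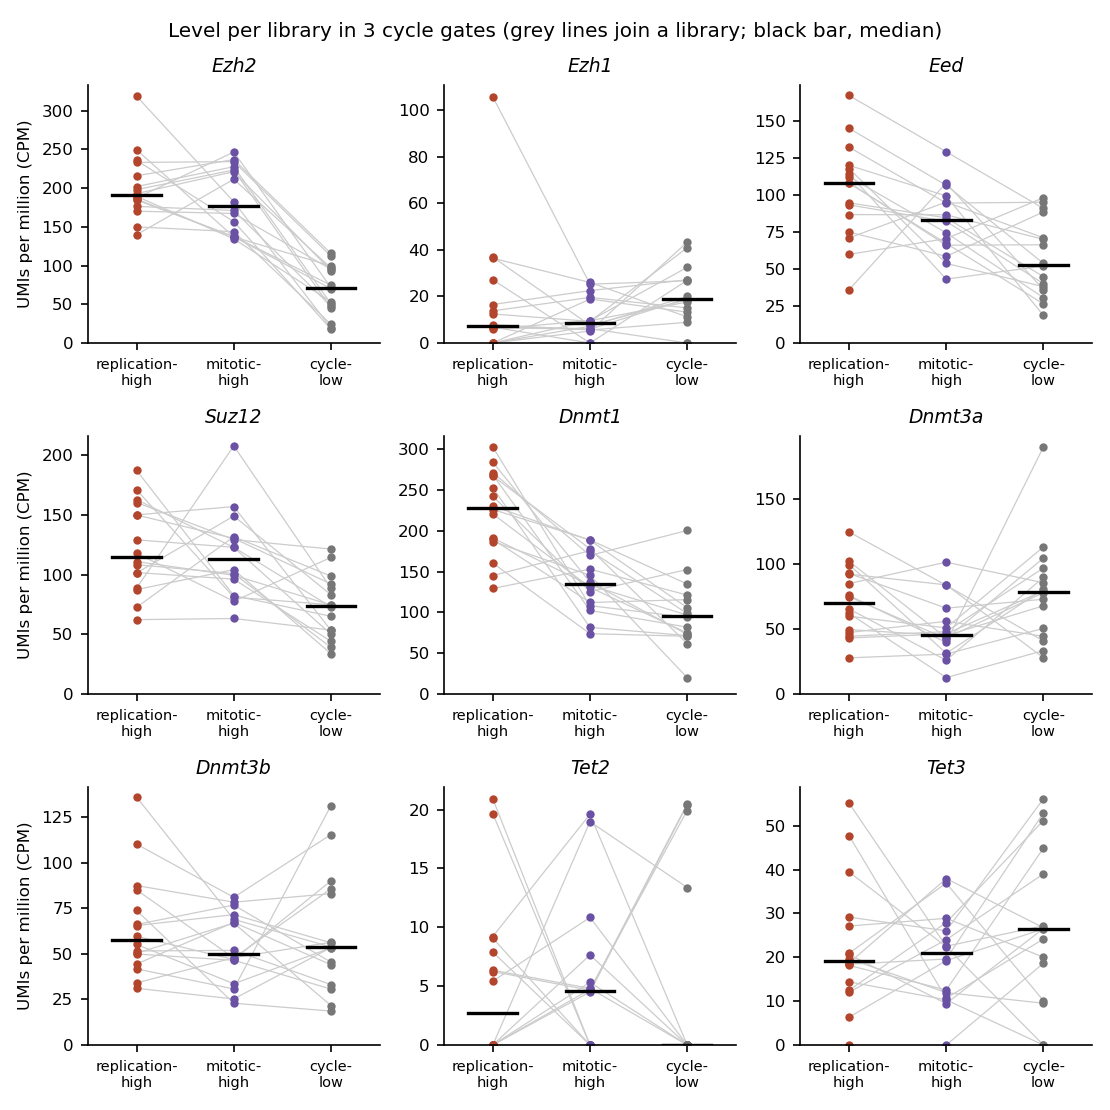
Level of each gene in CPM (vertical axis, linear, own scale in each panel) in replication-high, mitotic-high and cycle-low cells of the 16 libraries (points; grey lines join the gates of a library; black bars are medians). All replication-high and all mitotic-high points of Ezh2 lie above its highest cycle-low point, 116 CPM, while Dnmt1 is highest in replication-high cells. How many of all genes separate in this way was not counted.

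In replication-high cells Ezh2, Dnmt1, Eed and Suz12 were higher than in cycle-low cells, Ezh2 by the most. Of the 9 genes, 5 passed the filter on low counts, and 4 of these were called higher and none lower. Of all 2139 genes tested, 44.1% were called, 18.7% higher and 25.4% lower, so calls are common in this comparison and were not read as a property of the set.

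Ezh2 ranged from 140 to 319 CPM (median 191) over libraries in replication-high cells, against 17.9 to 116 CPM (median 70.9) in cycle-low cells. No library's values overlapped those of the other gate. How common such separation was among all genes was not counted. The difference was 2.72-fold, a log2 fold change of 1.44 ± 0.16 (SE, edgeR, adjusted p = 4.26e-13), higher in 16 of 16 libraries. It was 1.502 within SB341 and 1.36 within SB343, and with cells thinned to 1000 UMIs each it was 1.18 (edgeR adjusted over genes with 50 UMIs or more in the sums).

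Dnmt1 ranged from 129 to 302 CPM (median 228) in replication-high cells, against 20.1 to 200 CPM (median 95.3) in cycle-low cells. The ranges overlapped, with 10 replication-high libraries above every cycle-low one. The log2 fold change was 1.10 ± 0.14 (SE, edgeR, adjusted p = 9.54e-11), and every library was higher. It was 1.38 within SB341 and 0.74 within SB343, both called, and 0.85 with thinned cells (edgeR adjusted p = 0.000467).

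Eed ranged from 36.01 to 167 CPM (median 108) in replication-high cells, against 18.6 to 98.2 CPM (median 52.9) in cycle-low cells. The ranges overlapped, with 9 replication-high libraries above every cycle-low one. Its log2 fold change was 0.66 ± 0.19 (SE, edgeR, adjusted p = 0.00307), higher in 12 of 16 libraries. Within SB341 it was 0.89, and within SB343, where Eed was tested only with the filter of 50 UMIs, 0.44 (edgeR adjusted p = 0.407). Under that filter it was 0.93 with thinned cells (edgeR adjusted p = 0.0166), 0.77 with cells of 1000 UMIs or more (edgeR adjusted p = 0.00171) and 0.88 with narrower gates (edgeR adjusted p = 0.00354), where Eed did not pass the main filter.

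Suz12 ranged from 62.3 to 187 CPM (median 114) in replication-high cells, against 33.7 to 121 CPM (median 73.8) in cycle-low cells. The gates overlapped, with 7 replication-high libraries above every cycle-low one. Its log2 fold change was 0.63 ± 0.17 (SE, edgeR, adjusted p = 0.00117), higher in 15 of 16 libraries. The call was lost within SB341 (0.54, edgeR adjusted p = 0.0749). It was also lost with thinned cells (0.22, edgeR adjusted p = 0.680), where the redrawn gates held 88 replication-high and 105 cycle-low UMIs of Suz12. In the gates as first drawn, with cells thinned to the same depth, a Suz12 UMI was found in 12.3% of 889 replication-high cells (95% Wilson interval 10.3 to 14.6%) and in 6.43% of 886 cycle-low cells (4.999 to 8.24%). This is a count of pooled cells with no test over libraries, its intervals leave out the spread between libraries, and it does not restore the call.

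The de novo methylases and the oxidising enzymes of the set were not called in this comparison. Dnmt3a ranged from 27.9 to 125 CPM (median 70.3) in replication-high cells and from 28.0 to 190 CPM (median 78.8) in cycle-low cells. Its log2 fold change was -0.26 ± 0.19 (SE, edgeR, adjusted p = 0.272), with a 95% interval of -0.64 to 0.12. Dnmt3b, Tet3 and Ezh1 were too low for the filter and were tested among the 8677 genes with 50 UMIs or more in the sums of both gates, of which 17.1% were called. Dnmt3b differed by 0.03 (interval -0.38 to 0.45), Tet3 by -0.31 (-0.99 to 0.36) and Ezh1 by -0.51 (-1.31 to 0.30), none of them called. The Tet3 and Ezh1 intervals are wide, with 57 and 42 UMIs in replication-high and 52 and 40 in cycle-low cells, so differences inside them were not detectable at this depth. Tet2, with 13 UMIs in replication-high and 10 in cycle-low cells, was not tested. Tet1, outside the set, differed by -0.63 under the filter of 50 UMIs and was not called (edgeR adjusted p = 0.210).

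In mitotic-high cells Ezh2 and Suz12 were again higher than in cycle-low cells, Dnmt3a was lower, and Dnmt1 was higher by less than in replication-high cells. Of the 5 genes that passed the filter, 3 were called higher and 1 lower, against 10.8% higher and 17% lower of all 2387 genes tested (27.8% called in all). The balance of all genes turned with the filter: the main one gave 258 higher and 406 lower, the filter of 50 UMIs 595 and 387, and no filter 532 and 301. Ezh2 ranged from 134 to 247 CPM (median 177) in mitotic-high cells, against 17.9 to 116 CPM in cycle-low cells. The gates again did not overlap, which was likewise not counted over all genes. The log2 fold change was 1.38 ± 0.15 (SE, edgeR, adjusted p = 1.17e-12), higher in 16 of 16 libraries, and 1.07 with thinned cells. Suz12 ranged from 63.2 to 208 CPM (median 113) in mitotic-high cells, and 8 libraries lay above every cycle-low one. Its log2 fold change was 0.59 ± 0.16 (SE, edgeR, adjusted p = 0.00308), and the call was lost within SB341 (0.58, edgeR adjusted p = 0.0678) and with thinned cells (0.29, edgeR adjusted p = 0.624).

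Dnmt1 ranged from 73.9 to 189 CPM (median 135) in mitotic-high cells, and no library lay above the highest cycle-low value, 200 CPM. The log2 fold change of 0.44 ± 0.15 (SE) passed edgeR's test with an adjusted p of 0.0216, higher in 13 of 16 libraries. This call was lost with DESeq2 (0.45, adjusted p = 0.0564) and with cells of 1000 UMIs or more (0.34, edgeR adjusted p = 0.109). It was also lost with thinned cells and redrawn gates (0.02, edgeR adjusted p = 0.982), within SB343 (0.11, edgeR adjusted p = 0.797) and without the library block (0.44, edgeR adjusted p = 0.0802). Leaving out library 3, 4, 7, 9 or 12 also ended the call, with log2 fold changes of 0.39, 0.39, 0.32, 0.36 and 0.39. In the gates as first drawn, cells thinned to 1000 UMIs held a Dnmt1 UMI in 12.1% of 958 mitotic-high cells (95% Wilson interval 10.2 to 14.3%) and in 7.56% of 886 cycle-low cells (6.00 to 9.49%). This is again a count of pooled cells with no test over libraries, its intervals leave out the spread between libraries, and it does not restore the call.

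Dnmt3a ranged from 12.6 to 102 CPM (median 45.7) in mitotic-high cells, against 28.0 to 190 CPM (median 78.8) in cycle-low cells. The ranges overlapped, and the mitotic-high value was the lower one in 12 of 16 libraries. The log2 fold change was -0.74 ± 0.20 (SE, edgeR, adjusted p = 0.00312). It was -1.32 with thinned cells (edgeR adjusted p = 0.000742), -0.72 within SB341 (filter of 50 UMIs, edgeR adjusted p = 0.125) and -0.76 within SB343 (edgeR adjusted p = 0.0912), so neither batch alone passed. Eed differed by 0.40 ± 0.19 (SE) and was not called (edgeR adjusted p = 0.110). Under the filter of 50 UMIs, where 10.7% of 9141 genes were called, Dnmt3b differed by -0.15 (interval -0.57 to 0.27), Tet3 by -0.42 (-1.09 to 0.24) and Ezh1 by -0.84 (-1.66 to -0.02), none passing the adjusted threshold (edgeR adjusted p = 0.764, 0.534 and 0.225).

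**Figure D3:**
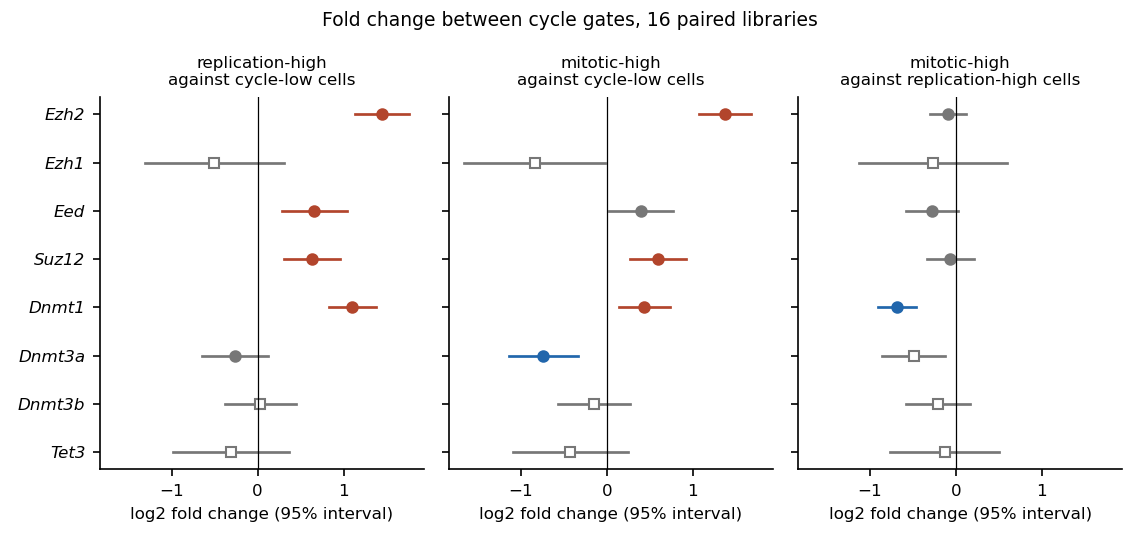
Log2 fold change (horizontal axis) with its 95% interval for 8 genes in the 3 comparisons of cycle gates over 16 paired libraries. Filled circles come from the main filter and open squares from the filter of 50 UMIs; red marks genes called higher, blue those called lower and grey those not called. Ezh2 stands at 1.44 and 1.38 against cycle-low cells and at -0.09 between the other gates, where Dnmt1 is at -0.69.

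Set directly against replication-high cells, mitotic-high cells had less Dnmt1, and the PRC2 genes were not called. Of the 9 genes, 4 passed the filter and 1 was called, lower, against 28.4% of 2730 genes called and 15.1% called lower. Dnmt1 had a median of 135 CPM (73.9 to 189) in mitotic-high cells, against 228 CPM (129 to 302) in replication-high cells. Its mitotic-high value was the lower one in 14 of 16 libraries, with overlapping ranges. The log2 fold change was -0.69 ± 0.11 (SE, edgeR, adjusted p = 6.18e-07), -0.69 within SB341, -0.65 within SB343 and -0.83 with thinned cells, and it was called in each. Ezh2 differed by -0.09 (95% interval -0.30 to 0.12), Suz12 by -0.06 (-0.33 to 0.21) and Eed by -0.28 (-0.58 to 0.02; edgeR adjusted p = 0.568, 0.778 and 0.172). Dnmt3a differed by -0.49 under the filter of 50 UMIs and was not called (interval -0.86 to -0.12, edgeR adjusted p = 0.0685, where 12.7% of 9421 genes were called). Removing mitochondrial UMIs from the sums changed no call of any of the 9 genes in the 3 comparisons.

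The shares inside each enzyme family followed these levels. Ezh2 made up 92.3% of the Ezh1 and Ezh2 UMIs in replication-high cells (502 of 544; 95% Wilson interval 89.7 to 94.2%) and 94.2% in mitotic-high cells (573 of 608; 92.1 to 95.8%), against 76.5% in cycle-low cells (130 of 170; 69.6 to 82.2%). Pooled Ezh1 stood at 16.9 and 11.3 CPM in replication-high and mitotic-high cells and at 20.7 CPM in cycle-low cells, against 202, 185 and 67.3 CPM for Ezh2 in the same order. Library 7 alone gave 17 of the 42 replication-high Ezh1 UMIs, and without it pooled Ezh1 was 10.8, 10.6 and 20.2 CPM and the Ezh2 share 94.96%, 94.6% and 76.3%. Dnmt1 made up 62.6% of the UMIs of the 3 DNA methylases in replication-high cells (59.4 to 65.7%) and 56.6% in mitotic-high cells (53.1 to 60.1%), against 40.6% in cycle-low cells (36.2 to 45.2%). The Dnmt3a share of the 2 de novo enzymes was 52.5%, 47.6% and 56.4% in these gates, with intervals that overlapped. These shares are descriptions of pooled counts and carry no test, and their intervals cover counting error only.

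Some cells fell outside the 3 gates. The 192 cells above both upper quartiles had 239 CPM of Ezh2 and 239 CPM of Dnmt1 (130 UMIs each; Poisson interval 200 to 284 CPM), and 134 CPM of Eed. The 1316 cells in none of the gates had 146 CPM of Ezh2, 166 CPM of Dnmt1 and 76.2 CPM of Eed. Pooled cycle-low cells had less Ezh2 and Dnmt1 than either group, at 67.3 and 94.3 CPM. Eed stood at 58.5 CPM in cycle-low cells (Poisson interval 48.2 to 70.4 CPM). That interval overlapped the one of cells in none of the gates (65.5 to 88.1 CPM), so no direction is read between them. Dnmt3a had 58.9 CPM (Poisson interval 40.3 to 83.1 CPM) and 66.1 CPM (56.2 to 77.3 CPM) in the same groups. Cycle-low cells had 77.7 CPM of it (65.7 to 91.2 CPM), with overlapping intervals, so no direction is read. Dnmt3b had 35.0 and 59.4 CPM against 60.1 CPM, with overlapping intervals as well.

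Related genes were followed from 2 lists, 35 Polycomb genes and 24 genes linked to DNA methylation, called DNA methylation genes below. The second list also holds the metabolic enzymes Idh1, Idh2, Idh3a and Ogdh, and Apobec3. Its counts and medians are therefore not those of the methylation machinery alone. In replication-high against cycle-low cells, 2 of the 3 Polycomb genes that passed the filter were called higher and none lower. These were the histone-binding PRC2 subunits Rbbp7 (403 against 233 CPM, log2 fold change 0.66 ± 0.09, adjusted p = 3.59e-09) and Rbbp4 (288 against 183 CPM, 0.51 ± 0.11, adjusted p = 4.35e-05; means over libraries, SE, edgeR), both of which also serve other chromatin complexes. Of 8 DNA methylation genes tested, 5 were called higher and 1 lower. Uhrf1, which brings Dnmt1 to newly copied DNA, averaged 164 CPM in replication-high and 30.1 CPM in cycle-low cells, a log2 fold change of 2.32 ± 0.20, and Hells, a remodeller needed for DNA methylation, 196 and 42.3 CPM, a log2 fold change of 2.12 ± 0.18. Both were higher in 16 of 16 libraries, and both changed by more than Dnmt1 did (1.10), a difference between genes that was not tested. Idh3a (0.61), Mat2a, which makes the methyl donor (0.48), and Idh2 (0.34) were also higher, and Cxxc5, a CpG-binding protein, was lower (-0.83). The list medians were 0.51 and 0.41, beside -0.06 over all genes tested.

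With the filter of 50 UMIs, 25 of the 35 Polycomb genes could be tested in that comparison, and 4 were called higher and 1 lower, beside 9.4% higher and 7.68% lower of all genes. The median of the 25 was 0.01, beside -0.04 over all genes. Cbx2, a reader of the mark in Polycomb repressive complex 1, averaged 30.7 CPM in replication-high and 11.9 CPM in cycle-low cells (log2 fold change 1.31, edgeR adjusted p = 0.00694). Jarid2, a PRC2 cofactor, was the one lower, 12.8 against 27.5 CPM (-1.18, edgeR adjusted p = 0.0202). Of 18 DNA methylation genes, 7 were higher and 2 lower, among them Ahcy (1.26), which clears the product of methylation reactions, and Idh1 (-0.98). L3mbtl2 was higher as well (1.02, edgeR adjusted p = 0.0427), and the other 20 Polycomb genes were not called.

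Against replication-high cells, mitotic-high cells had less of the same genes. Of 3 Polycomb genes tested, 2 were called lower, Rbbp7 (-0.51 ± 0.08) and Rbbp4 (-0.33 ± 0.09; SE, edgeR adjusted p = 1.24e-07 and 0.00232). Of 11 DNA methylation genes, 5 were lower and 1 higher, beside 15.1% lower and 13.4% higher of all genes. Hells averaged 32.0 CPM in mitotic-high and 196 CPM in replication-high cells (-2.58 ± 0.16) and Uhrf1 47.5 and 164 CPM (-1.79 ± 0.15), each lower in 16 of 16 libraries. Mat2a (-0.81), Idh2 (-0.38) and Idh3a (-0.36) were lower as well. Apobec3, a cytidine deaminase of antiviral defence, was the one higher, 244 against 128 CPM (0.96 ± 0.11). With the filter of 50 UMIs, 2 of 27 Polycomb genes were higher, Asxl1 (0.89) and Jarid2 (1.10), and 3 lower, with Cbx2 at -1.25, a share near the 12.7% called of all genes. Against cycle-low cells, mitotic-high cells had none of 3 Polycomb genes called, and of 7 DNA methylation genes Apobec3 was higher (0.83) and Cxxc5 lower (-0.46). With the filter of 50 UMIs Cxxc5 was no longer called (-0.41, edgeR adjusted p = 0.0673), and Asxl1 (0.67), L3mbtl2 (1.03) and Ahcy (1.11) were called higher, out of 26 Polycomb and 19 DNA methylation genes.

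The genes most like each member over the 48 sums of library and cycle gate were taken by Pearson's r of log2(CPM + 10) among 3229 genes of at least 50 CPM outside the gate lists. For Ezh2 these were Pbk (r = 0.80), Gm23248 (0.80), Spc24 (0.79), Tuba1b (0.79) and Mad2l1 (0.77). For Dnmt1 they were Dctpp1 (0.75), Ipo5 (0.72), Ywhah (0.72), Set (0.71) and Atad2 (0.71). Suz12 was most like Xpo1 (0.66), Gm23248 (0.64), Hmgn1 (0.62), Rer1 (0.62) and Cdk4 (0.61). Eed was most like Eif1ax (0.58), Hnrnpab (0.57), Rfc4 (0.57), Spc24 (0.56) and Hmgn1 (0.56). The values were lower for Dnmt3b, with Itgb1 (0.56), Tnpo1 (0.52), Qser1 (0.47), Cnih1 (0.47) and Psmd2 (0.45), and for Dnmt3a, with Arf4 (0.53), Gse1 (0.50), Bag6 (0.47), Fam69b (0.47) and Gstm1 (0.46). Among the members, Ezh2 correlated with Dnmt1 at 0.52, with Suz12 at 0.42 and with Eed at 0.34, but with Dnmt3a at -0.23. The sums of a library share its depth and plate, so these values describe likeness of pattern only. How high the top values among 3229 genes would run by chance was not computed. Dnmt3a and Dnmt3b had 674 and 610 UMIs in all kept cells, so the genes named for them may be no more alike than chance gives.

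Cells were also gated by lineage genes inside each library: more than the 80th percentile of the share of 1 list, at least 2 UMIs of it, and not above that percentile of another list. The lists held 10 lymphoid, 12 granule, 11 megakaryocyte and erythroid and 16 stem cell genes. The granule list joined Mpo, Elane and other granule genes with monocyte genes such as Csf1r, Irf8 and F13a1, and its Fcnb had no UMI. Granule-gated cells are therefore not neutrophil precursors alone. The lists gave 663 lymphoid-gated, 598 granule-gated, 487 megakaryocyte/erythroid-gated and 477 stem-gated cells. The share of cells within 1 UMI of a percentile was 24.7%, 31.3%, 41.4% and 35.9%, so these gates are loose ranges. They also differed in cycle: 26.2%, 16.6% and 17.9% of the lymphoid-gated, granule-gated and megakaryocyte/erythroid-gated cells were cycle-low, against 42.1% of the stem-gated cells. Median UMIs per cell were 1777, 2367 and 2041, against 1395 in stem-gated cells.

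No member was called between lineage gates. Dnmt1 alone passed the main filter, in granule-gated against stem-gated cells. Its level ranged from 104 to 265 CPM (median 162) in granule-gated cells, against 57.3 to 330 CPM (median 137) in stem-gated cells. The ranges overlapped and the log2 fold change was 0.04 ± 0.19 (SE, edgeR, adjusted p = 0.921), while 15.1% of the 944 genes tested were called. With the filter of 50 UMIs, 7 of the 9 genes were tested in each comparison and none was called, against 4.12%, 5.27% and 3.61% of all genes in lymphoid-gated, granule-gated and megakaryocyte/erythroid-gated against stem-gated cells.

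Ezh2 came nearest. Its median over libraries was 143, 161 and 151 CPM in lymphoid-gated, granule-gated and megakaryocyte/erythroid-gated cells, against 126 CPM in stem-gated cells, with overlapping ranges throughout. The log2 fold changes were 0.40 ± 0.21, 0.51 ± 0.20 and 0.45 ± 0.22 (SE, edgeR adjusted p = 0.407, 0.144 and 0.298). With the gates narrowed to the 90th percentile all 3 were called, at 1.06, 1.10 and 1.11 (edgeR adjusted p = 0.00699, 0.00245 and 0.00442), where stem-gated cells held 45 Ezh2 UMIs in all. At the 80th percentile they were 0.52, 0.50 and 0.62 within SB341 and 0.02, 0.09 and 0.01 within SB343, none called. At that percentile and with the filter of 50 UMIs, Dnmt1 gave 0.00 (interval -0.30 to 0.30), 0.25 (-0.12 to 0.61) and -0.04 (-0.44 to 0.37) in the same order. Its granule value under the main filter was 0.50 within SB341 and -0.49 within SB343, neither called.

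**Figure D4:**
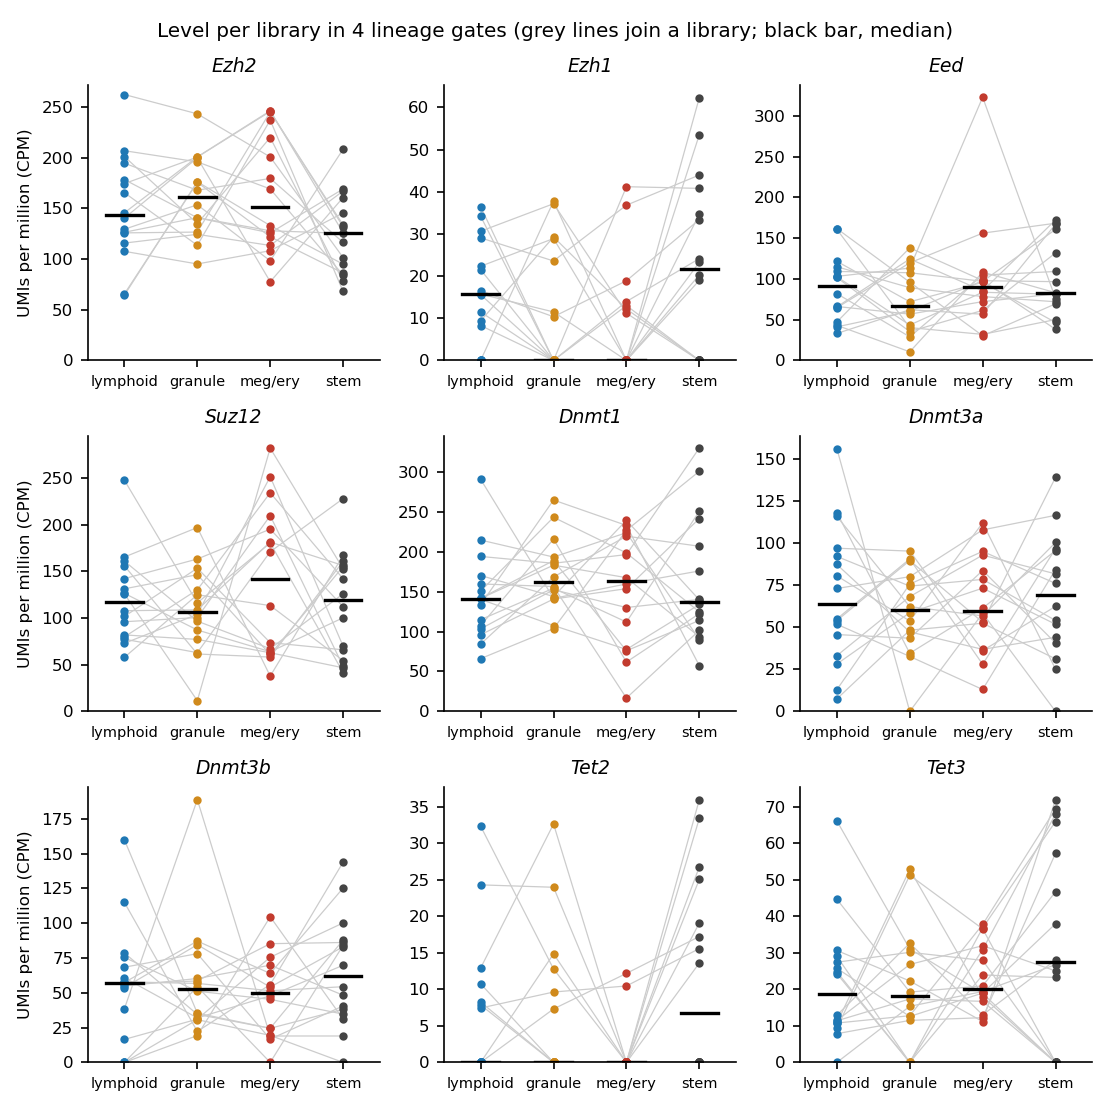
Level of each gene in CPM (vertical axis, linear, own scale in each panel) in lymphoid-gated, granule-gated, megakaryocyte/erythroid-gated (meg/ery) and stem-gated cells of the 16 libraries (points; grey lines join the gates of a library; black bars are medians). The ranges overlap in every panel, with Ezh2 medians of 143, 161, 151 and 126 CPM.

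Of the other genes, Dnmt3a had pooled values of 66.0, 62.1, 64.4 and 68.8 CPM in lymphoid-gated, granule-gated, megakaryocyte/erythroid-gated and stem-gated cells. Dnmt3b had 57.3, 56.8, 48.9 and 63.7 CPM and Eed 88.3, 74.4, 92.1 and 96.9 CPM. Suz12 had 119, 110 and 142 CPM, against 112 CPM in stem-gated cells. Ezh1 had 16.2, 11.1 and 9.78 CPM, against 22.9 CPM in stem-gated cells (18 UMIs, Poisson interval 13.6 to 36.3 CPM), and the intervals overlapped. Tet3 had 21.6, 21.7 and 24.5 CPM, against 35.7 CPM (23.7 to 51.6 CPM). Tet2 had 2 UMIs in megakaryocyte/erythroid-gated cells, 1 each from libraries 1 and 7, 1.63 CPM (0.20 to 5.89 CPM), and 9 in stem-gated cells, 11.5 CPM (5.25 to 21.8 CPM); it was too low for a test.

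Of the related genes, Rbbp4 was the Polycomb gene called between lineage gates under the main filter, higher in granule-gated than in stem-gated cells (268 against 177 CPM, log2 fold change 0.52 ± 0.16, edgeR adjusted p = 0.0199), out of 2 tested. Mat2a was lower in lymphoid-gated than in stem-gated cells (148 against 234 CPM, -0.68 ± 0.20, edgeR adjusted p = 0.0141), out of 3 DNA methylation genes tested, beside 9.65% of 839 genes called. Under the filter of 50 UMIs Mat2a was not called (-0.50, edgeR adjusted p = 0.0948), and neither was any other of 17 DNA methylation genes. No gene of either list was called in megakaryocyte/erythroid-gated against stem-gated cells, where 3 were tested and 22.6% of 749 genes were called. Over the 64 sums of the lineage gates the highest likeness of any member was r = 0.52, between Dnmt3b and Arf3, and that of Ezh2 was 0.49, with Snrpd1. The top values that chance would give were not computed here either.

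Inside each lineage gate, pooled Ezh2 was also lowest in the cycle-low cells. In lymphoid-gated cells Ezh2 had 200 CPM in replication-high and 182 CPM in mitotic-high cells, against 93.7 CPM in cycle-low cells. In granule-gated cells it had 197 and 170 CPM, against 64.0 CPM, and in megakaryocyte/erythroid-gated cells 186 and 181 CPM, against 73.0 CPM. In stem-gated cells it had 181 CPM (31 UMIs) and 202 CPM (34 UMIs), against 37.0 CPM (10 UMIs, Poisson interval 17.8 to 68.1 CPM). Among replication-high cells the 4 lineage gates thus lay between 181 and 200 CPM of Ezh2, within each other's intervals. Dnmt1 had 263, 200, 200 and 228 CPM in lymphoid-gated, granule-gated, megakaryocyte/erythroid-gated and stem-gated cells that were replication-high, 113, 156, 135 and 155 CPM in those that were mitotic-high, and 93.7, 98.9, 51.1 and 77.7 CPM in those that were cycle-low. These counts are pooled over libraries and were not tested.

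**Figure D5:**
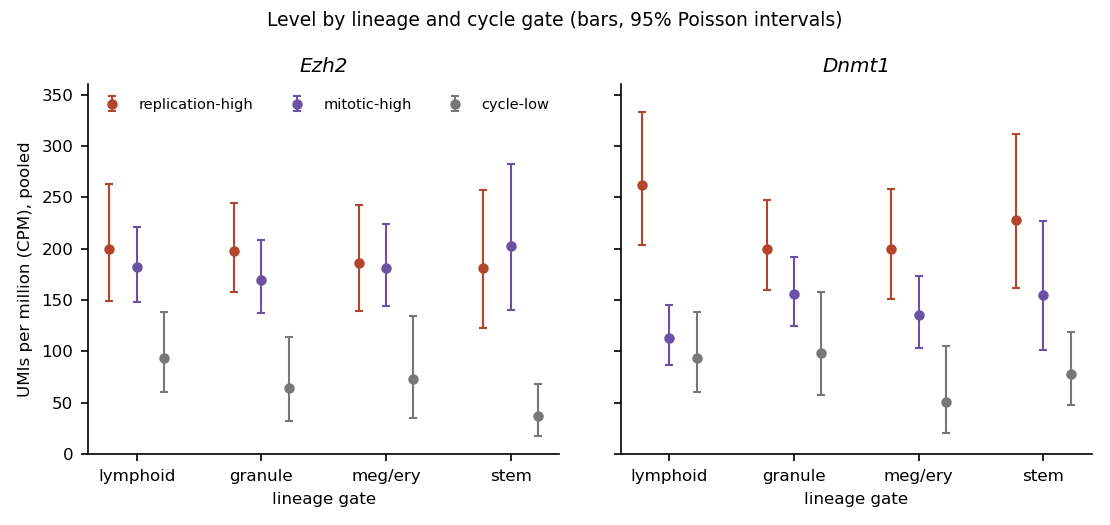
Level of Ezh2 (left) and Dnmt1 (right) in CPM (vertical axis, linear), pooled over libraries, in replication-high, mitotic-high and cycle-low cells of each lineage gate (meg/ery, megakaryocyte/erythroid-gated), with 95% Poisson intervals that cover counting error only. Ezh2 lies between 170 and 202 CPM in the replication-high and mitotic-high cells of all 4 lineage gates and between 37.0 and 93.7 CPM in cycle-low cells.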

How the data were processed

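Single LSK cells were sorted into 16 plates and sequenced by MARS-seq, which counts 3′ ends with molecular identifiers. The authors deposited raw UMI counts per gene and well, per the labels' protocols. Reads were demultiplexed with bcl2fastq 2.15.0.4 and the build is mm10, per the submitters' processing notes. Not given in the sources used here: which aligner, annotation and counter were used, or whether counting was stranded.

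Of 6144 wells, those listed empty, under 500 UMIs (92 ERCC rows left out) or with 20% or more mitochondrial UMIs were dropped, leaving 5157 cells. No well was listed with more than 1 cell, so no doublet caller was run. Counts were summed per library and gate. Gates of 1 library share its plate, which is the source of the pairing, so the library was a block in edgeR 4.0.16 (limma 3.58.1, R 4.3.3): TMM scaling, filterByExpr, quasi-likelihood test, Benjamini-Hochberg threshold 0.05, with gate-list genes kept in the sums and not tested. The SE is the log2 fold change divided by the square root of F. Alternatives were DESeq2 1.42.0 and others given below. The filter of 50 UMIs over both gates, alone and with other settings, the removal of mitochondrial UMIs and pooled levels without 1 library were chosen after seeing the data. Python 3.11.15 with pandas 2.3.3, numpy 2.4.6, scipy 1.17.1 and matplotlib 3.10.9 did the rest.

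The 9 genes and all lists were chosen with earlier results of these data known. Named are all 9 genes, of the 2 related lists those called with the smallest p (up to 5 in each direction), with further ones under the filter of 50 UMIs chosen after their values were seen, and for genes with 300 UMIs or more the 5 most alike.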

Additional observations from a re-analysis of the deposited data

How the results depend on the processing

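The 15 fold changes of the 9 genes that the main filter allowed were recomputed under 375 alternatives: 363 stayed on their side of the threshold, 10 of these uncalled with the sign changed, 12 kept direction and lost the call, and no called value changed sign; alternatives where a gene failed the filter gave no value. The lost calls were Suz12 within SB341, Dnmt3a within SB343 and Dnmt1 in mitotic-high against cycle-low cells, as given above. Of 282 further alternatives with the filter of 50 UMIs, 264 stayed on their side of the threshold, 37 of these uncalled with the sign changed, 15 lost a call and 3 gained one. Without the replicate block that pairs gates by library, Dnmt3a in mitotic-high against cycle-low cells was -0.64 under that filter (edgeR adjusted p = 0.0627). Of 189 recomputed levels, 2 moved, with cells of at most 10% mitochondrial UMIs: medians of 130 CPM for Suz12 and 182 CPM for Dnmt1.

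Counts of genes called moved more. Replication-high against cycle-low cells gave 944, with 605 within SB341, 521 within SB343, 292 with thinned cells, 575 with narrower gates and 1482 with the filter of 50 UMIs. Mitotic-high against cycle-low cells gave 664, with 389 without the replicate block, 416 and 317 within SB341 and SB343, 177 thinned and 375 with narrower gates. Mitotic-high against replication-high cells gave 776, with 412 and 392 within the batches, 125 thinned and 1195 with the filter of 50 UMIs. Against stem-gated cells, lymphoid-gated cells gave 81, with 277 without a filter, 38 without the block, 45 and 21 within the batches, 29 thinned, 12 among cycle-low cells and 262 with the filter of 50 UMIs. Granule-gated cells gave 143, with 80 by DESeq2, 435 without a filter, 57 without the block, 73 and 60 within the batches, 31 thinned, 6 among cycle-low cells and 350 with the filter of 50 UMIs. Megakaryocyte/erythroid-gated cells gave 169, with 104 by DESeq2, 72 without the block, 93 and 78 within the batches, 16 thinned and 0 among cycle-low cells. Leaving out 1 library gave 901 to 983, 613 to 663, 710 to 776, 71 to 85, 122 to 147 and 142 to 167 in the same order. Fewer libraries entered the batch fits and fewer UMIs the thinned fits, and the causes of these changes in counts were not tested.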
